A study of Mus musculus with 48 samples.

Results

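The effect of spaceflight on the Cornu Ammonis (CA) of the hippocampus was examined in saline-treated mice, as the difference between 3 flown mice (FLT-SAL) and 3 ground control mice (GC-SAL). The comparison used 6 of the 48 areas of illumination (AOIs) of the study, chosen as the CA AOIs of the FLT-SAL and GC-SAL slides, and covered all 15782 genes of the CA table, with the negative-control probe kept as the measure of background. Digital spatial profiling hybridizes tagged probes to a tissue section, releases the tags of an outlined area with UV light, and counts them by sequencing. All mice were C57BL/6 males, 10 weeks old at launch. The FLT-SAL mice spent 35 days on the International Space Station and were back at the research laboratory no more than 20 h after splashdown. The GC-SAL mice lived in flight hardware cages on the ground, on a protocol that began 3 days later, and both groups were treated with saline. The remaining CA AOIs came from 3 flown and 3 ground mice given BuOE, a manganese porphyrin that mimics superoxide dismutase, at 1 mg/kg under the skin, first given 7 days ahead of launch and then every week. Each mouse gave 1 AOI per region, in fixed brain sections outlined with GFAP, Iba1 and nuclear stains, so the mouse was the replicate. Each slide carried the 3 mice of one group, so that slide and group cannot be told apart.

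The CA fields hold densely packed pyramidal neurons that relay signals from the dentate gyrus (DG) and the CA3 field toward the subiculum and cortex, and they are known for their part in spatial and episodic memory. Pyramidal cells of CA1 are rich in calcium sensor proteins, and their excitatory synapses change strength after calcium enters the spine and acts on calmodulin, kinases and phosphatases. Firing also switches on a short-lived set of immediate early genes, whose mRNA level follows recent activity.

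The labels name CA1, and the defining markers of that field were present. Q3-normalized values of Wfs1 ranged from 59.3 to 133 in the 6 CA AOIs and from 23.0 to 40.0 in the 6 DG AOIs of the same mice, and those of Fibcd1 from 55.4 to 112 and from 22.2 to 40.0. The granule cell marker Prox1 had the opposite order, at 20.0 to 38.1 in CA and 99.4 to 132 in DG. The negative probe, which marks signal with no target, ranged from 16.9 to 20.2 in FLT-SAL and from 17.7 to 19.3 in GC-SAL. Of the 15782 genes, 6029 averaged less than 1.5 times the negative probe over the 6 AOIs and are called near-background here. A gene outside that set can still lie below 1.5 times the negative probe in 1 of the groups. Depth did not overlap between the groups: deduplicated reads ranged from 603927 to 948561 in FLT-SAL and from 370066 to 483270 in GC-SAL, with 300 to 335 and 285 to 321 nuclei per AOI. The part of this depth difference in the results was not tested.

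In the CA, 22 of 15782 genes passed limma's test at an adjusted p under 0.05 with a change of more than 1.5-fold, which is 0.139% of the genes. Higher levels in FLT-SAL were called for 20 genes (0.127% of all) and lower levels for 2 genes, Cpne7 and Arc (0.0127%). None of the 22 was near-background, and their levels ran from 2.13 to 210.1 times the negative probe. At an unadjusted p under 0.05 there were 730 genes with higher and 332 with lower values in FLT-SAL (4.63% and 2.1%, or 6.73% together). The 3 flown mice were all above the 3 controls for 7.55% of genes and all below them for 5.33%. On the raw counts, edgeR's quasi-likelihood test called 48 of 15777 genes (0.304%), 39 higher (0.247%) and 9 lower (0.057%), and all 22 genes called by limma were among them. The median log2 fold change over all genes was 0.02, but it moved with the level of the gene. It was 0.01 among near-background genes, 0.11 among the 1018 genes at 3 to 5 times the negative probe, and 0.17 among the 420 genes at 5 to 10 times, where 78.1% of genes had a positive change. In the BuOE mice, the last of these medians was 0.11 in the CA, and in the DG of the saline mice it was 0.16. In the CA of the saline mice, 144 of the 1018 genes were higher and 24 lower at an unadjusted p under 0.05 (limma). At 5 to 10 times the negative probe these counts were 112 and 13 of 420. At 10 times or more they were 43 and 3 of 131. The summed value of all genes was also higher in every flown mouse, at 622749 to 634882 in FLT-SAL and 599313 to 618044 in GC-SAL. Each gene list below holds genes of different levels, so its median, its counts and its sums are read beside these values.

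**Figure D1:**
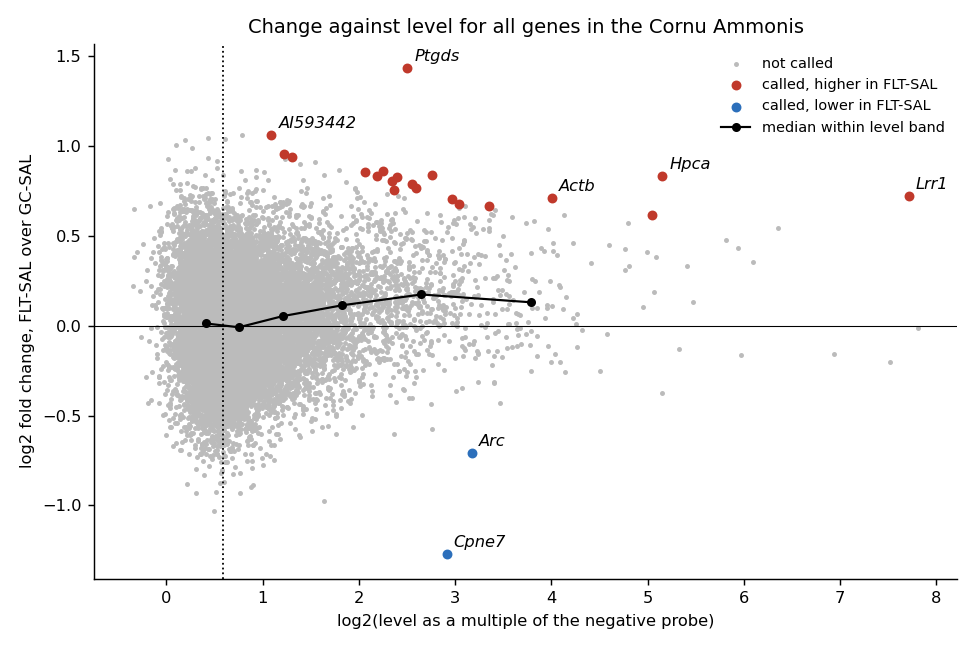
Log2 fold change of FLT-SAL over GC-SAL (y axis) against the level as a multiple of the negative probe (x axis, log2 scale) for 15782 genes in the CA, one point per gene. The dotted line marks 1.5 times the negative probe, and the black line joins the medians of 6 bands of level. All 22 called genes lie to the right of the dotted line, and the black line rises from 0.01 in the lowest band to 0.17 in the band of 5 to 10 times the negative probe.

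The number of called genes changed when single mice were left out. Each such fit keeps 2 mice in that group and tends to have less power. A lost call alone thus does not show that a gene rests on the mouse left out. Without FLT-SAL mouse 1, 2 or 3, there were 1, 2 and 3 called genes, and without GC-SAL mouse 1, 2 or 3 there were 9, 42 and 19. Ptgds was called in all 6 of these fits, Cpne7 in 5 and Hpca in 4, and each of the 22 genes kept its direction in all 6. Every called gene other than Ptgds lost its call in at least 1 of the 6 fits, and only 3 of the 22 kept it in at least 3 of the 6.

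**Figure D2:**
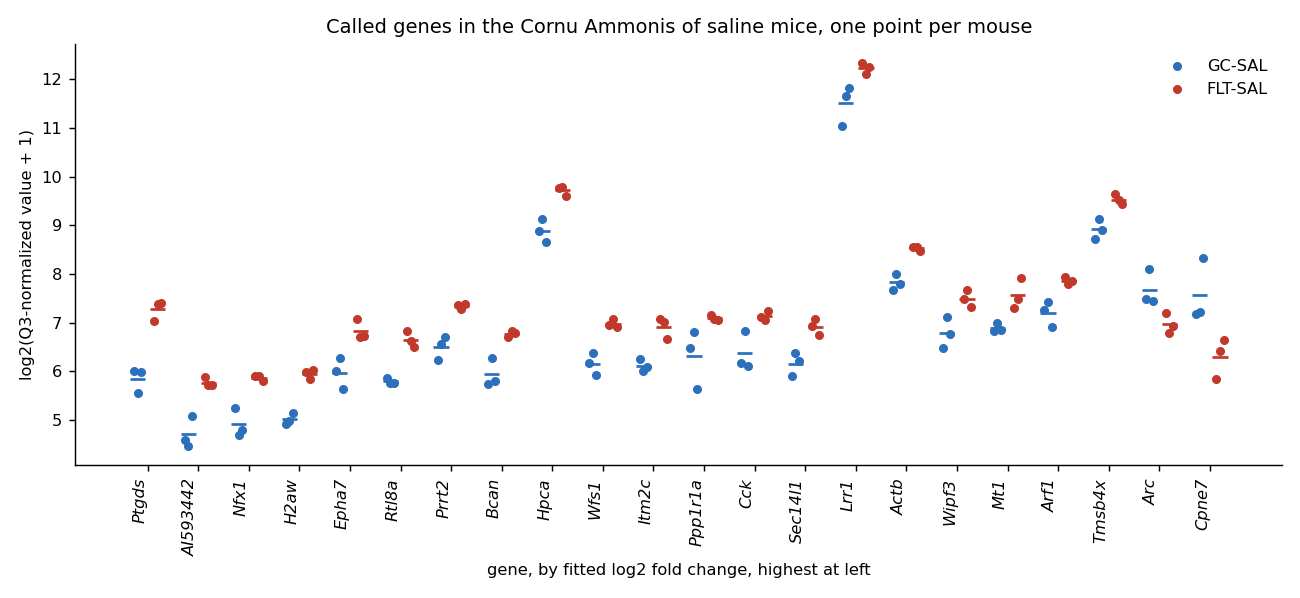
Level of each of the 22 called genes (y axis, log2 of the Q3-normalized value + 1) in the CA, with one point per mouse for GC-SAL (blue) and FLT-SAL (red), short lines at the group means, and genes ordered by fold change (x axis). The 3 FLT-SAL and 3 GC-SAL points do not overlap for any gene shown, and the points of Cpne7 and Arc are lower in FLT-SAL.

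Ptgds had the smallest p and rose most. It encodes lipocalin-type prostaglandin D synthase, which makes prostaglandin D2 and is secreted into cerebrospinal fluid, with known sources in the meninges, choroid plexus and oligodendrocytes. Its normalized values were 131, 166 and 168 in the FLT-SAL mice and 63.1, 45.7 and 62.3 in the GC-SAL mice, and the groups were far apart. The fitted log2 fold change was 1.43 ± 0.18 (SE moderated by limma; n = 3 mice per group; limma adjusted p = 6.6e-07), and it ran from 1.28 to 1.55 when 1 mouse was left out. The related lipocalin Apod, a lipid carrier of glia, had values of 49.4, 57.5 and 60.8 in the FLT-SAL mice and 16.9, 49.6 and 28.2 in the GC-SAL mice. Its change of 0.93 ± 0.24 was called by edgeR on counts (adjusted p = 0.049) and not by limma (adjusted p = 0.089). The fatty acid-binding protein Fabp5 had a log2 fold change of 0.13 ± 0.20, and the 7 measured lipocalins and fatty acid carriers had a median of 0.24.

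Markers of the cells known to make Ptgds were examined beside it, and their part in its change was not tested. The summed level of the meninges and vessel wall markers was 257 to 304 in FLT-SAL and 271 to 325 in GC-SAL. Of the 11 measured, 0 had an unadjusted p under 0.05 and 7 were near-background. The 6 measured choroid plexus and ependyma markers summed to 158 to 179 in FLT-SAL and 188 to 212 in GC-SAL, lower in every flown mouse, with a median log2 fold change of -0.30. Of these 6, 0 had an unadjusted p under 0.05 and 2 were near-background. Among them Enpp2, an enzyme that makes lysophosphatidic acid, had values of 31.8, 44.1 and 51.6 against 36.9, 53.4 and 46.0 (FLT-SAL against GC-SAL). The 15 oligodendrocyte and myelin markers summed to 785 to 981 in FLT-SAL and 713 to 831 in GC-SAL and overlapped between the groups. Of these, Mobp, a structural gene of compact myelin, had values of 180.1, 204 and 188 in the FLT-SAL mice and 111, 151 and 117 in the GC-SAL mice. Its log2 fold change of 0.60 ± 0.16 was called by edgeR (adjusted p = 0.048) and not by limma (adjusted p = 0.089). Fewer cells of a type and less RNA per cell cannot be told apart in these AOIs.

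The promoter of Ptgds is shown because the gene had the largest change. The 250 bases before the RefSeq start (GRCm38.p6, chr2:25469750-25469999, minus strand, 5′ to 3′) hold 1 match to the AP-1 site TGANTCA, printed in capitals, a motif found on either strand in 6.75% of 32851 promoter windows of that length.
Ptgds: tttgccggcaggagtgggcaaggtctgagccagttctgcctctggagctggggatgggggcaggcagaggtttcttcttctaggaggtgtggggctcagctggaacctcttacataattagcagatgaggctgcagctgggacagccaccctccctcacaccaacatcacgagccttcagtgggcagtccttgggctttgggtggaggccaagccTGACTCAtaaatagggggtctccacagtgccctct
The match lies 29 to 35 bases before the start, can be read on both strands, and is a description of the sequence only. GENCODE coding transcripts of Ptgds start at positions -297 to 0 relative to this RefSeq start, where negative positions are upstream. For the start at -297 the match lies after the start.

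Cpne7 and Arc were the only called genes with lower levels in FLT-SAL under limma. Cpne7 encodes a copine, a protein that binds membranes when calcium rises. It was measured at 56.5, 84.2 and 98.5 in the FLT-SAL mice and 143, 147 and 322 in the GC-SAL mice. The log2 fold change was -1.27 ± 0.20 (limma adjusted p = 0.00016). The third GC-SAL mouse stood far above the other 5 mice, and without it the change was -0.89 (adjusted p = 0.046), while without FLT-SAL mouse 1 it was -1.05 and no longer called (adjusted p = 0.058). No other copine was called. Cpne6, the next most abundant of the 9 measured copines, was at 65.9, 104 and 106 against 97.0, 91.5 and 127, with overlapping groups and a log2 fold change of -0.21 ± 0.17, and the family median was 0.02 (-0.05 in edgeR and -0.07 in DESeq2).

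Arc encodes a capsid-forming protein of the synapse that is made after neuronal activity and removes AMPA receptors from the membrane. Its values were 145, 109 and 122 in the FLT-SAL mice and 179, 273 and 173 in the GC-SAL mice, and the log2 fold change was -0.71 ± 0.16 (limma adjusted p = 0.032). The second GC-SAL mouse was the highest, and without it the change was -0.50 and no longer called (limma adjusted p = 0.29). The call was also lost without any 1 of the 3 flown mice, with changes of -0.82, -0.61 and -0.69. In the list of 17 activity-induced effectors, 4 had lower values in FLT-SAL at an unadjusted p under 0.05, 0 had higher values, and the median was -0.15 against 0.02 over all genes. Homer1, a scaffold of the postsynaptic density, was at 29.4, 33.9 and 35.4 against 46.2, 47.6 and 57.8 (-0.60 ± 0.22), and Dusp5, a phosphatase of ERK kinases, at 24.7, 32.8 and 30.8 against 44.6, 55.3 and 47.4 (-0.72 ± 0.22). For both, every flown mouse was below every control, though neither passed the adjusted test (limma adjusted p = 0.41 and 0.24). Vgf, a precursor of secreted neuropeptides, was at 48.3, 51.3 and 55.4 against 69.3, 80.0 and 57.8 (-0.40 ± 0.20), and Rgs2, a brake on G protein signals, at 51.8, 46.2 and 53.9 against 119, 38.1 and 59.3, where a single control mouse was high.

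Transcription factors of the immediate early set gave a similar count. Of 16 measured, 3 had lower and 0 had higher values in FLT-SAL at an unadjusted p under 0.05, none was called by limma or edgeR, and the median log2 fold change was -0.22. The direction was not uniform, with 5 positive and 11 negative changes. Every flown mouse was above every control for 2 of the 16 and below every control for 3. Fosl2, a partner in AP-1, was at 23.5, 25.7 and 22.3 against 41.6, 45.7 and 29.6 (-0.67 ± 0.24), with no overlap, and its FLT-SAL values averaged 1.29 times the negative probe. Nr4a1, an orphan nuclear receptor, was at 67.1, 48.2 and 40.0 against 61.6, 95.3 and 63.7 (-0.50 ± 0.21), and Egr3, a zinc finger factor, at 94.2, 75.9 and 100.1 against 149, 145 and 77.1 (-0.40 ± 0.20), where the third control mouse lay among the flown mice. Jund, the most abundant member, was at 148, 173 and 176 against 166, 204 and 184 (-0.15 ± 0.15), and its groups overlapped. Both activity lists had negative medians under every scaling tried of these AOIs, from -0.31 to -0.20 for the transcription factors and from -0.24 to -0.14 for the effectors. In the CA of the BuOE mice the median was -0.0028 for the transcription factors and -0.25 for the effectors. In the DG of the saline mice both medians were positive, at 0.099 and 0.069.

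The called genes also included Hpca, Prrt2 and Ppp1r1a, which have known roles in calcium sensing, transmitter release and phosphatase control. Hpca encodes hippocalcin, a calcium sensor that is abundant in CA1 pyramidal neurons. Its values were 864, 886 and 772 in the FLT-SAL mice and 471, 555 and 402 in the GC-SAL mice, with a log2 fold change of 0.83 ± 0.14 (limma adjusted p = 0.0013), and all flown mice were above all controls. Prrt2, a presynaptic membrane protein that tempers vesicle release, was measured at 164, 154 and 165 in the FLT-SAL mice and 73.9, 93.4 and 104 in the GC-SAL mice. The log2 fold change of Prrt2 was 0.84 ± 0.16 (limma adjusted p = 0.0069). Ppp1r1a, the inhibitor 1 of protein phosphatase 1, was measured at 141, 133 and 132 in the FLT-SAL mice and 87.7, 111 and 48.9 in the GC-SAL mice. It rose by 0.79 ± 0.18 on the log2 scale (limma adjusted p = 0.042), and GC-SAL mouse 3 was well below the others.

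Other members of these groups were higher in every flown mouse without passing limma's test. Nrgn, which encodes neurogranin, a store of calmodulin in spines, was the most abundant calcium gene at 1792, 2021 and 1583 against 1142, 1384 and 1178 (0.54 ± 0.14; limma adjusted p = 0.089). Camk2b, a subunit of calmodulin-dependent kinase II, was at 232, 243 and 250.1 against 162, 168 and 136 (0.64 ± 0.16), and Ppp3r1, the regulatory subunit of calcineurin, at 181, 209 and 197 against 114, 147 and 111 (0.67 ± 0.16). Both were called by edgeR and not by limma (adjusted p = 0.02 and 0.02). Orai2, a store-operated calcium channel subunit, and Nsg1, an endosomal protein that sorts receptors, were also called by edgeR and not by limma, with log2 fold changes of 0.87 ± 0.21 and 0.73 ± 0.18. In the calcium sensor list, 14 of 37 genes had higher values at an unadjusted p under 0.05 and 0 had lower ones, and 1, Hpca, was called by limma. Its median was 0.31. Of all 420 genes at 5 to 10 times the negative probe, 112 were higher and 13 lower at that p.

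Synaptic vesicle and exocytosis genes had 14 of 37 higher and 1 lower at an unadjusted p under 0.05, with a median of 0.30. Syp, the vesicle protein synaptophysin, was at 278, 280.2 and 247 in the FLT-SAL mice and 152, 198 and 181 in the GC-SAL mice, and its log2 fold change of 0.60 ± 0.14 was just outside limma's threshold (adjusted p = 0.051), and it was not called by edgeR either, where the change was 0.58 (adjusted p = 0.033). Vamp2, the vesicle SNARE, was at 231, 232 and 253 against 171, 215 and 205 (0.28 ± 0.14). The exception in direction was Bsn, the active zone scaffold bassoon, at 90.6, 126 and 103 against 143, 152 and 135 (-0.44 ± 0.16). Glutamate receptor genes had 3 of 21 higher at that level and 0 lower, with none called and 10 near-background. Among them Grin1, the obligatory NMDA receptor subunit, was at 321, 345 and 304 against 246, 263 and 218 (0.42 ± 0.15), whereas its partner Grin2a was at 353, 416 and 328 against 323, 442 and 354 (-0.02 ± 0.14) and overlapped. GABA receptor genes had 2 of 13 higher, among them Gabra5, the subunit of extrasynaptic receptors in CA1, at 119, 109 and 105 against 77.0, 89.6 and 74.1 (0.46 ± 0.17). Of 51 potassium channel genes, 2 were higher and 1 lower at an unadjusted p under 0.05, 26 had a negative change, 22 were near-background and none was called by limma. Among them Kcnq3, a subunit of the M current that limits firing, was called by edgeR and not by limma at 89.5, 102 and 81.6 against 52.3, 59.1 and 47.4 (0.77 ± 0.19).

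Of the markers of CA1 pyramidal neurons, Wfs1 was called. Wfs1 encodes wolframin, a protein of the endoplasmic reticulum and a standard marker of CA1. It was measured at 122, 133 and 119 in the FLT-SAL mice and 70.8, 82.0 and 59.3 in the GC-SAL mice, and it rose by 0.82 ± 0.17 on the log2 scale (limma adjusted p = 0.024). Of the 12 CA1 markers, 5 had higher and 0 lower values at an unadjusted p under 0.05, and 1 had a negative change, Man1a, named here after its values were seen, which was at 43.6, 48.2 and 45.4 against 58.5, 51.5 and 62.3 (-0.32 ± 0.20). The list summed to 1123 to 1147 in FLT-SAL and 869.7 to 991 in GC-SAL, without overlap, and its median was 0.32. The sum over all genes did not overlap either. Dkk3, a secreted glycoprotein, was at 146, 167 and 162 against 119, 107 and 116 (0.47 ± 0.16) and Mpped1 at 149, 145 and 169 against 129, 111 and 122 (0.36 ± 0.15). The list of 12 general neuron markers summed to 1345 to 1447 in FLT-SAL and 1076 to 1193 in GC-SAL, again without overlap. Within it, 6 were higher at an unadjusted p under 0.05, none was called, and 4 had a negative change. Snap25, a SNARE of the presynaptic membrane, was at 221, 232 and 222 against 132, 152 and 181 (0.55 ± 0.15), Thy1, a surface glycoprotein of projection neurons, at 213, 234 and 199 against 160.1, 147 and 138 (0.54 ± 0.15) and Eno2, the neuronal enolase, at 238, 256 and 231 against 186, 173 and 202 (0.37 ± 0.15).

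The summed level of the neuron markers was higher in FLT-SAL beside differences in the calcium and synaptic lists, in which 9 and 5 genes had negative changes, and its part in those results was not tested. Markers of neighbouring hippocampal fields were not higher. The 12 granule cell markers summed to 315 to 326 in FLT-SAL and 328 to 335 in GC-SAL, and the 11 CA2 and CA3 markers to 300.2 to 325 in FLT-SAL and 302 to 351 in GC-SAL. The granule cell sum was lower in every flown mouse, and the CA2 and CA3 sums overlapped. In both lists 0 genes had an unadjusted p under 0.05, and 6 of each were near-background. The 10 interneuron markers summed to 408 to 480.3 in FLT-SAL and 336 to 377 in GC-SAL, with Gad1, which makes GABA, at 60.0, 61.6 and 60.0 against 47.7, 49.6 and 40.0 (0.40 ± 0.21). Of these markers 4 were near-background, 7 had a positive change, 3 had a negative change, and 2 were higher at an unadjusted p under 0.05. Cck was the called member of that list. It encodes the neuropeptide cholecystokinin, which hippocampal interneurons release and pyramidal neurons also transcribe, and was measured at 137, 132 and 149 in the FLT-SAL mice and 70.8, 112 and 68.2 in the GC-SAL mice. The change of Cck was 0.76 ± 0.17 (limma adjusted p = 0.037). Cck averaged 139 in FLT-SAL and 83.8 in GC-SAL, a large part of the difference between the interneuron sums, which were not compared without it. The 20 measured neuropeptide precursors had no shared direction, with 2 higher and 1 lower at an unadjusted p under 0.05.

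**Figure D3:**
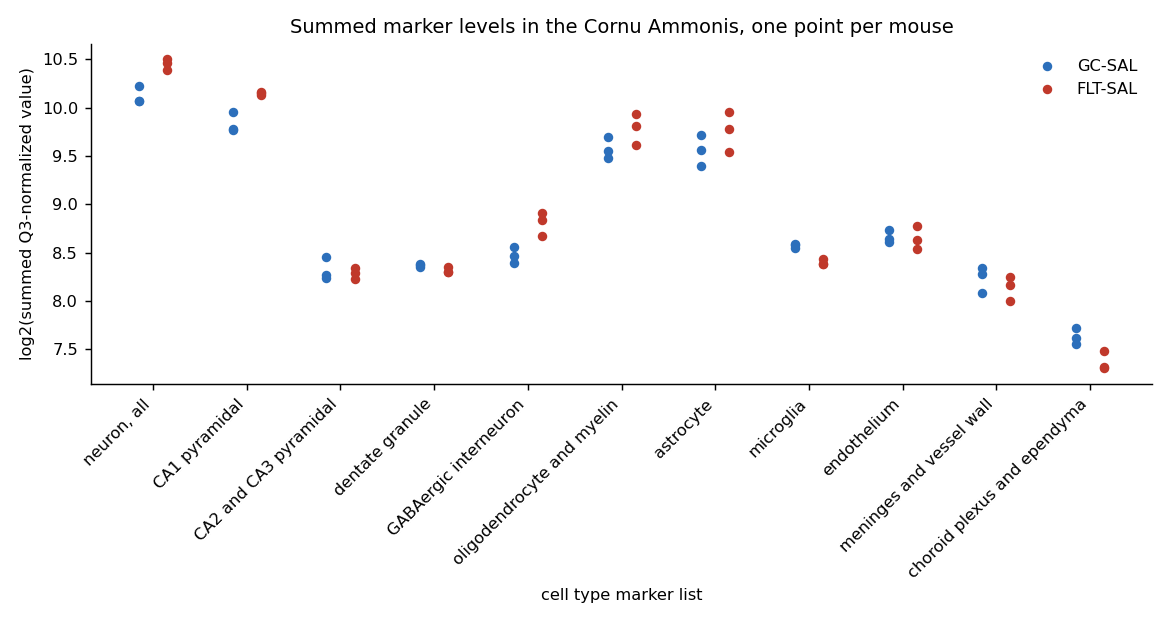
Summed Q3-normalized value of each cell type marker list (y axis, log2 scale) in the CA, with one point per mouse for GC-SAL (blue) and FLT-SAL (red), by list (x axis). The neuron, CA1 pyramidal and interneuron sums of the 3 flown mice lie above those of the 3 controls, and the microglia, granule cell and choroid plexus sums lie below them. Some interneuron, microglia, granule cell and choroid plexus markers are near-background, and the interneuron sum includes Cck. The sum over all genes, not drawn, was also higher in every flown mouse (622749 to 634882 against 599313 to 618044).

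No glial or vascular marker was called by limma. The 14 astrocyte markers summed to 745 to 991 in FLT-SAL and 674 to 842 in GC-SAL and overlapped, with Glul, the glutamine synthetase, at 160.1, 159 and 211 against 111, 168 and 126 (0.40 ± 0.16) and the glutamate transporter Slc1a2 at 129, 216 and 219 against 131, 175 and 129 (0.35 ± 0.17). The 12 microglial markers summed to 334 to 347 in FLT-SAL and 374 to 385 in GC-SAL, lower in every flown mouse, with 2 of them lower at an unadjusted p under 0.05 and 5 near-background. Those were Cd68, a lysosomal protein of phagocytes that was near-background, and Itgam, a complement receptor, at 18.8, 24.6 and 23.9 against 32.3, 32.4 and 41.5 (-0.63 ± 0.26). In FLT-SAL alone Itgam averaged 1.20 times the negative probe. The homeostatic marker P2ry12 had the opposite sign at 43.6, 35.9 and 40.0 against 27.7, 34.3 and 29.6 (0.37 ± 0.24), and the complement gene C1qa was at 41.2, 34.9 and 30.0 against 38.5, 40.0 and 51.9. Endothelial markers had a median of 0.02, with Ly6c1 at 38.8, 48.2 and 41.6 against 57.0, 59.1 and 40.0 and Bsg, or basigin, at 120.1, 139.6 and 121 against 114, 111 and 127.

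Genes of the actin cytoskeleton gave 3 calls. Actb, cytoplasmic β-actin, was measured at 377, 377 and 354 in the FLT-SAL mice and 203, 255 and 221 in the GC-SAL mice. Its log2 fold change was 0.71 ± 0.14 (limma adjusted p = 0.014), and the 3 flown mice lay within a narrow range above all controls. Tmsb4x encodes thymosin β4, which holds actin monomers in reserve, and was measured at 800.5, 728 and 687 in the FLT-SAL mice and 419, 557 and 479 in the GC-SAL mice. Wipf3, a WASP-interacting protein that promotes actin nucleation, was measured at 178, 202 and 159 in the FLT-SAL mice and 87.7, 137 and 108 in the GC-SAL mice. The changes of these genes were 0.61 ± 0.14 and 0.71 ± 0.16 (limma adjusted p = 0.04 and 0.044), and their groups did not overlap. In the whole list of actin and tubulin genes, 15 of 35 were higher and 0 lower at an unadjusted p under 0.05, with a median of 0.30. Tubb4a, a tubulin of neurons and oligodendrocytes, was at 91.8, 83.1 and 97.0 against 46.2, 43.8 and 81.5 (0.71 ± 0.20) without overlap, and it was not called (limma adjusted p = 0.14).

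Epha7, an ephrin receptor tyrosine kinase of dendrites and axons, was measured at 133, 104 and 104 in the FLT-SAL mice and 63.1, 76.2 and 48.9 in the GC-SAL mice. It rose by 0.86 ± 0.18 on the log2 scale (limma adjusted p = 0.024). Its relative Epha4 was at 161, 163 and 153 against 92.4, 139 and 86.0 (0.62 ± 0.16) and Epha6 at 185, 174 and 175 against 175, 233 and 185 (-0.14 ± 0.15), and the family median was 0.04. Bcan, or brevican, a proteoglycan of the extracellular matrix and perineuronal nets, was measured at 102, 113 and 109 in the FLT-SAL mice and 52.3, 76.2 and 54.8 in the GC-SAL mice, with a log2 fold change of 0.83 ± 0.19 (limma adjusted p = 0.039). Arf1, a GTPase that drives vesicle budding from the Golgi, was measured at 244, 221 and 229 in the FLT-SAL mice and 152, 169.6 and 119 in the GC-SAL mice and rose by 0.66 ± 0.15 on the log2 scale (limma adjusted p = 0.039). Sec14l1, a lipid transfer protein, was measured at 120.1, 134 and 105 in the FLT-SAL mice and 58.5, 82.0 and 72.6 in the GC-SAL mice and rose by 0.75 ± 0.17 (limma adjusted p = 0.037). Every flown mouse exceeded every control for Epha7, Bcan, Arf1 and Sec14l1.

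Proteins linked to amyloid, tau and synuclein had the highest list median after the metallothioneins. Itm2c, a membrane protein that binds the amyloid precursor and limits its cleavage, was measured at 133, 128 and 100.1 in the FLT-SAL mice and 75.4, 62.9 and 66.7 in the GC-SAL mice and was called (0.80 ± 0.17; limma adjusted p = 0.031). Of the 16 measured genes, 10 were higher and 0 lower at an unadjusted p under 0.05, and the median was 0.43. App, the amyloid precursor itself, was at 616, 595 and 522 against 426, 446 and 412 (0.43 ± 0.14), and Aplp1, its homolog, at 281, 280.2 and 295 against 183, 273 and 276 (0.25 ± 0.15). Sncb, β-synuclein, was at 114, 109 and 105 against 57.0, 85.8 and 72.6 (0.62 ± 0.17; limma adjusted p = 0.13), and Apoe, the lipid carrier of astrocytes, at 131, 201 and 199 against 97.0, 135 and 120.1 (0.57 ± 0.17). Sncb, Apoe, Aplp1 and App lay at 4.89, 7.87, 14.2 and 27.1 times the negative probe, levels at which the median over all genes was also positive.

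Metallothioneins, small proteins that bind zinc and copper and are induced by metals, glucocorticoids and oxidants, were measured for 3 members, and Mt1 was called. Mt1 was measured at 155, 179 and 239 in the FLT-SAL mice and 112, 126 and 114 in the GC-SAL mice, with a log2 fold change of 0.67 ± 0.16 (limma adjusted p = 0.045). Mt3, the brain-enriched form, was at 90.6, 97.5 and 87.0 against 53.9, 64.8 and 59.3 (0.62 ± 0.21; adjusted p = 0.3). Mt2 was at 67.1, 65.7 and 134 against 58.5, 76.2 and 75.6 (0.27 ± 0.20). Only the third flown mouse was above all controls for Mt2, and without that mouse the change was -0.07. The windows of 250 bases before the RefSeq starts of Mt1 (GRCm38.p6, chr8:94178839-94179088, plus strand) and Mt2 (chr8:94172368-94172617, plus strand) are shown 5′ to 3′ because these neighbouring genes are known for metal response elements, with matches to the core TGCACNC or TGCGCNC, on either strand, in capitals.
Mt1: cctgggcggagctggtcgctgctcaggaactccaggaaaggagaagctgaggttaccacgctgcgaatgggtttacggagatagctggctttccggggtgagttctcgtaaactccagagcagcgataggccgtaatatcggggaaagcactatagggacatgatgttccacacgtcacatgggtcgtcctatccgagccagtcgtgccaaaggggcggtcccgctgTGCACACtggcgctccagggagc
Mt2: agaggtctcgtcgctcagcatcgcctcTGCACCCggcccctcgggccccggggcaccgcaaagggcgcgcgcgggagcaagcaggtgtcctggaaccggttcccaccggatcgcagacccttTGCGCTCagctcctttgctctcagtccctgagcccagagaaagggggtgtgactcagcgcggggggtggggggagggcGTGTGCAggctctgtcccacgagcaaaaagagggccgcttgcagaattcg
The Mt1 window held 1 match and the Mt2 window 3. Of all 32851 promoter windows, 21.4% held at least 1 match and 5.17% held 2 or more. GENCODE coding transcripts of Mt1 start up to 152 bases downstream of its RefSeq start. Those of Mt2 all start downstream of the RefSeq start used here, by 46 to 242 bases. The bases just after that Mt2 start were not found in a GENCODE transcript of the gene. Other start sites have other windows.

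The remaining called genes have less defined roles in neurons. Lrr1, a substrate receptor of a ubiquitin ligase, was among the most abundant targets, at 5152, 4409.7 and 4847 in the FLT-SAL mice and 2094, 3246 and 3630.2 in the GC-SAL mice. Its change was 0.72 ± 0.16 (limma adjusted p = 0.036), and without GC-SAL mouse 1, the lowest, it was 0.48 and no longer called (limma adjusted p = 0.47), as was also so without any 1 of the flown mice. Rtl8a, a gene derived from a retrotransposon Gag sequence, was measured at 113, 97.5 and 89.3 in the FLT-SAL mice and 57.0, 53.4 and 53.4 in the GC-SAL mice (0.86 ± 0.18). H2aw, a histone H2A gene, was measured at 62.4, 56.4 and 63.9 in the FLT-SAL mice and 29.2, 30.5 and 34.1 in the GC-SAL mice (0.94 ± 0.21). Nfx1, a zinc finger transcription factor, was measured at 58.9, 58.5 and 54.6 in the FLT-SAL mice and 36.9, 24.8 and 26.7 in the GC-SAL mice (0.96 ± 0.21). AI593442, a gene of undescribed function, was measured at 57.7, 51.3 and 51.6 in the FLT-SAL mice and 23.1, 21.0 and 32.6 in the GC-SAL mice (1.06 ± 0.23). The last 3 genes lay at 2.13 to 2.48 times the negative probe over the 6 AOIs, and in the controls alone AI593442 was at 1.36 times. For all 5 the flown mice lay above the controls, with limma adjusted p between 0.024 and 0.036.

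Several genes with large fold changes were not called, and some were close to background. Cdkn2d, an inhibitor of cyclin-dependent kinases 4 and 6, was at 48.3, 51.3 and 30.0 in the FLT-SAL mice and 20.0, 13.3 and 28.2 in the GC-SAL mice. Its change of 1.06 ± 0.27 had a limma adjusted p of 0.089. The level of Cdkn2d was 1.72 times the negative probe over the 6 AOIs and 1.08 times in GC-SAL alone. Prkca, protein kinase Cα, was at 73.0, 74.9 and 63.1 against 33.9, 49.6 and 29.6 (0.91 ± 0.26) and was called by edgeR and not by limma (adjusted p = 0.024), while the abundant isoform Prkcb had a change of 0.20 ± 0.15. Clstn1, a calsyntenin of synaptic membranes, was at 57.7, 59.5 and 74.7 against 32.3, 30.5 and 38.5 (0.90 ± 0.22), Fezf2, a transcription factor of deep-layer projection neurons, at 28.3, 22.6 and 20.0 against 49.3, 36.2 and 48.9 (-0.90 ± 0.24) and Ccdc148 at 23.5, 22.6 and 26.2 against 53.9, 36.2 and 47.4 (-0.88 ± 0.24). These 3 genes were called by edgeR and not by limma, the last 2 with lower values in FLT-SAL. There Fezf2 and Ccdc148 averaged 1.29 and 1.30 times the negative probe. Bsph1 (mean of 1.34 times the negative probe), Msrb1 (1.14), Pigv (1.20) and Chat (1.23) were near-background. Bsph1, a homolog of a sperm-binding protein, was at 36.5, 30.8 and 34.6 against 16.9, 13.3 and 17.8 (1.05 ± 0.31), and Msrb1, a selenoprotein that repairs oxidized methionine, at 25.9, 34.9 and 24.6 against 18.5, 7.62 and 16.3 (1.03 ± 0.32). Chat, which makes acetylcholine, was at 24.7, 28.7 and 34.6 against 13.9, 17.2 and 19.3 and Pigv, of GPI anchor synthesis, at 34.1, 26.7 and 25.4 against 13.9, 13.3 and 19.3. In the GC-SAL mice these 4 genes averaged 0.745 to 0.896 times the negative probe, so their fold changes are taken against background signal. Casp9, Ercc2 and Srd5a3, at 1.63 to 1.91 times the negative probe, had changes of 0.69 ± 0.23, 0.66 ± 0.23 and 0.63 ± 0.24 and were not called.

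Energy metabolism genes were tallied as 2 lists. Of the 43 genes of glycolysis and pyruvate metabolism, 11 were higher and 0 lower in FLT-SAL at an unadjusted p under 0.05, none was called by limma, and the median was 0.15. Gapdh was at 343, 349.9 and 341 against 251, 273 and 251 (0.42 ± 0.14) and Eno1, the ubiquitous enolase, at 109, 105 and 126 against 58.5, 78.1 and 90.4 (0.60 ± 0.17), with no overlap for either. The mitochondrial aldehyde dehydrogenase Aldh2 was at 49.4, 60.5 and 45.4 against 33.9, 43.8 and 22.2 (0.66 ± 0.23). Pcx, pyruvate carboxylase, had the largest change of the list (0.93 ± 0.26) but was near-background. Of 95 oxidative phosphorylation genes, 19 were higher and 0 lower, none was called, 71 had a positive change, and the median was 0.18. Cox6a1 and Cox8a, subunits of complex IV, were at 217, 240.1 and 244 against 174, 200.1 and 160.1 and at 233, 223 and 229 against 206, 219 and 181, and Ndufs7, of complex I, was at 55.3, 68.8 and 58.5 against 36.9, 45.7 and 31.1 (0.68 ± 0.20). Ribosomal protein genes, which are also abundant, had a median of 0.07 with 4 of 80 higher, and the proteasome genes 0.12 with 2 of 37. Rps2 was at 303, 278 and 284 against 294, 354 and 317 (-0.16 ± 0.14), Rpl17 at 381, 345 and 374 against 363, 335 and 351 (0.07 ± 0.14) and Rps7 at 149, 128 and 148 against 92.4, 114 and 90.4 (0.52 ± 0.16). In the VEGF signaling list, 7 of 54 genes were higher and 1 lower, none was called by limma, and Vegfa itself was at 20.0, 19.5 and 26.2 against 47.7, 24.8 and 34.1 (-0.64 ± 0.26). The FLT-SAL values of Vegfa were close to the negative probe, which ranged from 16.9 to 20.2 in these mice.

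In the stress-related lists, no heat shock gene was called, and of 22 measured 1 was lower at an unadjusted p under 0.05, Hsph1 at 58.9, 51.3 and 47.0 against 67.7, 78.1 and 75.6 (-0.49 ± 0.19). Hspa8 and Hsp90ab1, the abundant constitutive chaperones, had changes of -0.13 ± 0.16 and 0.06 ± 0.15. Antioxidant and glutathione genes had 3 of 32 higher and 0 lower, with none called. Gpx4, which reduces lipid peroxides, was at 96.5, 92.4 and 105 against 77.0, 70.5 and 96.4 (0.28 ± 0.17), Gstp1, a glutathione transferase, at 96.5, 113 and 109 against 89.3, 112 and 90.4 (0.13 ± 0.17) and Msra, a methionine sulfoxide reductase, at 61.2, 63.6 and 55.4 against 27.7, 55.3 and 51.9 (0.47 ± 0.21). The cold-inducible RNA-binding genes Cirbp and Rbm3 were at 47.1, 46.2 and 58.5 against 30.8, 28.6 and 34.1 (0.68 ± 0.22) and at 89.5, 107 and 88.5 against 67.7, 59.1 and 66.7 (0.55 ± 0.18), each higher in all flown mice and neither called. Glucocorticoid receptors and targets had 2 of 18 higher and 1 lower. The receptor Nr3c1 was at 138, 145 and 125 against 143, 105 and 135, Nr3c2 at 101, 93.4 and 80.8 against 84.7, 120.1 and 71.2, and Sgk1, a kinase induced by the receptor, at 41.2, 40.0 and 57.0 against 24.6, 21.0 and 31.1 (0.82 ± 0.24).

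Clock genes differed in both directions without a call. Of 21 measured, 3 were higher in FLT-SAL and 2 lower at an unadjusted p under 0.05. Nr1d1, Dbp and Tef were those higher, with Nr1d1 at 61.2, 58.5 and 63.1 against 36.9, 24.8 and 50.4 (0.75 ± 0.21), Dbp at 50.6, 66.7 and 82.4 against 32.3, 55.3 and 51.9 (0.52 ± 0.22) and Tef at 50.6, 44.1 and 53.1 against 36.9, 30.5 and 32.6 (0.55 ± 0.23). Nr1d2 and Per1 were not among them, with changes from -0.28 to -0.02 and from 0.07 to 0.26 when 1 mouse was left out. The repressors Nfil3 and Bhlhe40 were those lower, at 17.7, 29.8 and 16.9 against 30.8, 40.0 and 37.1 (-0.76 ± 0.27) and at 30.6, 35.9 and 49.3 against 50.8, 57.2 and 68.2 (-0.61 ± 0.20). The groups of Nfil3 and Bhlhe40 did not overlap, but Nfil3 in FLT-SAL was close to the negative probe, which ranged from 16.9 to 20.2 there.

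**Figure D4:**
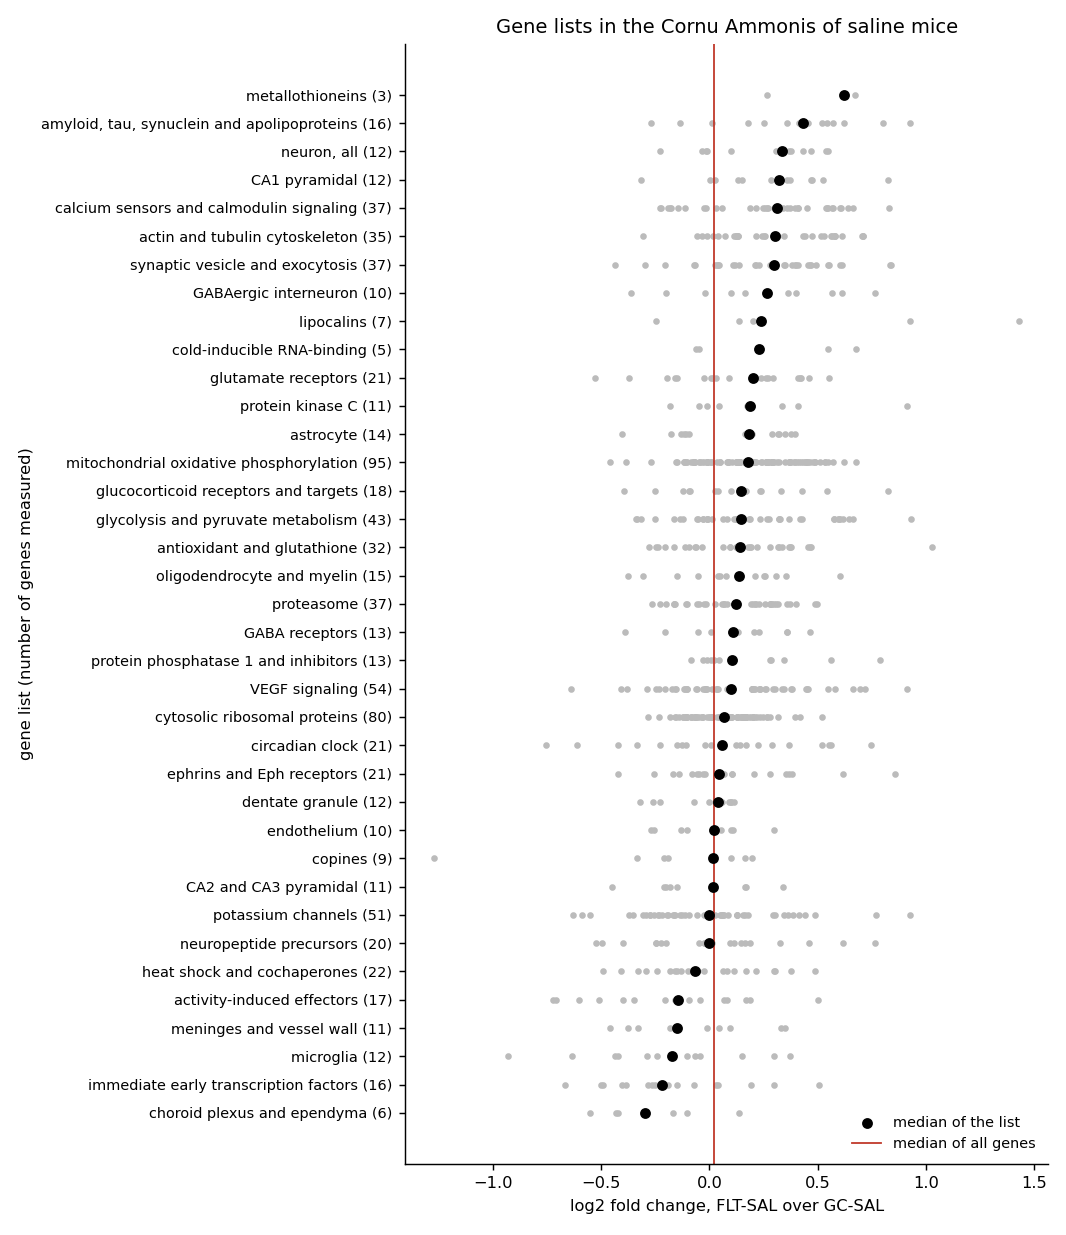
Log2 fold change of FLT-SAL over GC-SAL in the CA (x axis) for the measured members of 37 gene lists (y axis, with the number measured), one grey point per gene, a black point at the median of each list and a red line at the median of all genes. Medians run from -0.30 for choroid plexus and ependyma to 0.62 for metallothioneins, and both activity lists lie to the left of the red line.

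The BuOE mice gave a second flight against ground comparison in the CA with other mice and other controls. Of the 22 genes, 21 differed in the same direction there, and 7 of these had an unadjusted p under 0.05 (7.52% of all genes had one in either direction, and 3.45% with higher values). A positive difference was found there in 47.7% of all genes and in 58.4% of the 4360 genes at or above 2 times the negative probe, the levels of the called genes. Arc was called there too, at 121, 119 and 122 in the FLT-BuOE mice and 232, 249 and 236 in the GC-BuOE mice (log2 fold change -0.98 ± 0.16; limma adjusted p = 0.00042). Ptgds was at 86.9, 93.4 and 108 in the FLT-BuOE mice and 80.0, 46.7 and 57.3 in the GC-BuOE mice (0.67 ± 0.18) and Hpca at 587, 755 and 576 in the FLT-BuOE mice and 482, 616 and 403 in the GC-BuOE mice (0.36 ± 0.14). For both, the change was in the same direction and not called. Cpne7 went the other way, at 254, 216 and 256 in the FLT-BuOE mice and 103, 85.4 and 173 in the GC-BuOE mice (1.06 ± 0.20; adjusted p = 0.01). By limma it was the only gene of 15782 (0.00634%) whose flight difference differed between saline and BuOE, by -2.33 ± 0.28 on the log2 scale (limma adjusted p = 1.3e-07). In DESeq2 the difference was -2.38 with an adjusted p of 0.17, where 0 genes passed and 232 had an unadjusted p under 0.05, and in edgeR it was -2.34 with an adjusted p of 1.8e-15, where 4 genes passed, the others being Elof1, Lama2 and Lyrm7, named after their values were seen. For 21 of the 22 genes the size of the change was smaller with BuOE, but the genes were chosen for their change with saline, and no difference other than that of Cpne7 passed limma's adjusted test.

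In the DG of the same saline mice, 20 of the 22 genes differed in the same direction, the exceptions being Wfs1 and Cck. A positive difference was found in the DG in 48.7% of all genes and in 62.3% of those at or above 2 times the negative probe in the CA. The difference between the CA and DG changes was tested for every gene across the 48 AOIs with the mouse as a block. No gene had an adjusted p under 0.05 (limma), and 853 genes had an unadjusted p under 0.05, or 5.4%. The smallest limma adjusted p was 0.19, for Kcnq3, which was not among the 22. Its CA-minus-DG difference was 1.20 ± 0.26, with a DG change of -0.43 ± 0.19. For Cck the CA-minus-DG difference was 1.09 ± 0.27 (limma adjusted p = 0.6), with a DG change of -0.33 ± 0.19. For Wfs1 it was 1.05 ± 0.30 (limma adjusted p = 0.79), with a DG change of -0.23 ± 0.21. Hpca, Prrt2, Wipf3, Epha7, Mt1 and Itm2c had DG changes of 0.71, 0.72, 0.71, 0.78, 0.81 and 0.92, where those in the CA were 0.83, 0.84, 0.71, 0.86, 0.67 and 0.80. Against the frontal cortex (FCT), no gene passed the adjusted test (851 at an unadjusted p under 0.05, or 5.39%). Against the cortex region CT, 2 genes passed (0.0127%), namely Cpne7 and AI593442. Ptgds and Arc had changes in CT of 1.56 ± 0.21 and -1.56 ± 0.20, without a difference from the CA that passed the test (adjusted p = 1 and 0.98).

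**Figure D5:**
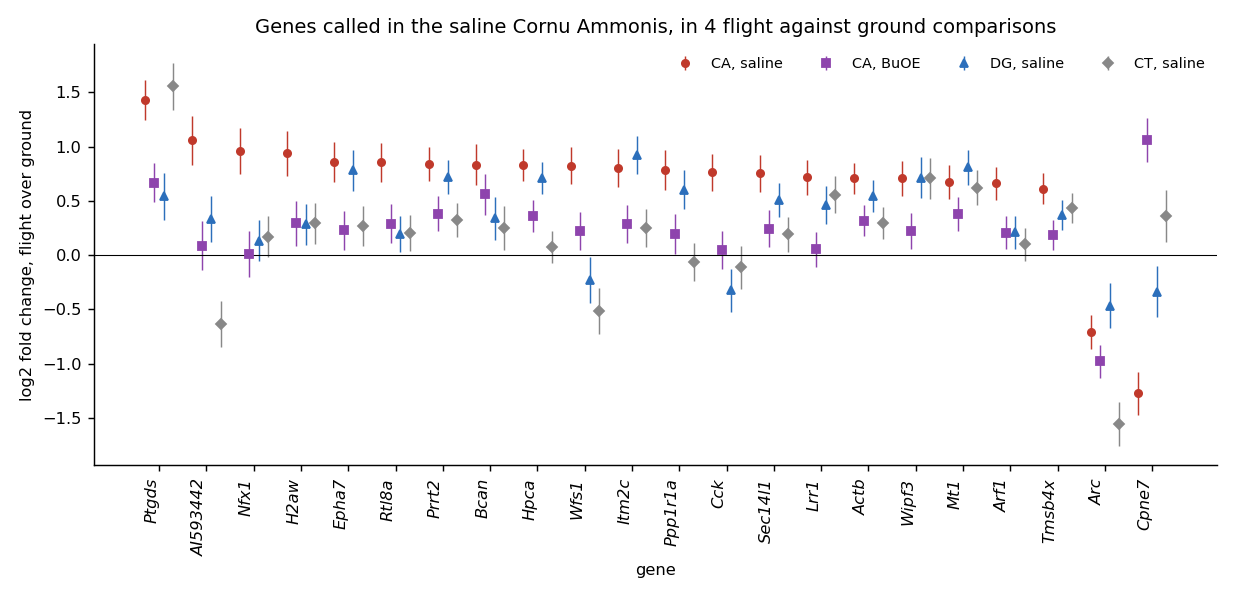
Log2 fold change of flight over ground (y axis) for the 22 called genes (x axis) in the CA of saline mice, the CA of BuOE mice, the DG of saline mice and the CT of saline mice, with bars of 1 standard error. Cpne7 is at -1.27 in the saline CA and 1.06 in the BuOE CA, and Cck and Wfs1 are above 0 in the saline CA and below 0 in the DG.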

How the data were processed

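Whole-transcriptome probes were counted in 48 AOIs of 12 mice, of which the 12 CA AOIs were fitted together for the flight comparison. The authors deposited a raw count of each of 20175 probes per AOI, and they deposited Q3-normalized signal for 15782 genes, in which each AOI is scaled to a common upper quartile of 40.0. The authors' own comparisons were not used here. Q3-normalized signal was tested as log2(value + 1) with limma 3.58.1 (mean-variance trend, the 4 CA groups as the factor, 8 residual degrees of freedom) and Benjamini-Hochberg adjustment over all genes. Genes were called at an adjusted p under 0.05 and a log2 fold change beyond 0.585. Deposited counts of the 15777 genes matched to exactly 1 probe were tested with edgeR 4.0.16 (quasi-likelihood) and DESeq2 1.42.0 as alternatives. Differences between regions used 48 AOIs with the mouse as a block (duplicateCorrelation). The tests were checked on simulated data. Named genes were all called genes, genes that the study discusses for CA, the 10 largest separated changes at or above 1.5 times the negative probe, the leading members of each list and the 10 leading edgeR-only genes, and 14 further list members named after their values were seen. A few genes that this rule takes are not reported here. The members and lists were chosen with earlier results of these data known. For each gene, limma drew the spread toward a trend over all genes, with a median of 57.7 prior degrees of freedom against 8 residual. The residual part includes the BuOE mice. Standard errors and p-values from limma thus rest mostly on that trend, and less on the spread of a gene between the 6 saline mice. Sections of a group shared a slide, so no p-value measures a spread between slides.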

Additional observations from a re-analysis of the deposited data

Results flagged for a closer look

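Cpne7 stood out because its flight difference in the CA depended on the treatment. With saline the log2 fold change was -1.27 ± 0.20, with BuOE 1.06 ± 0.20, and the difference of -2.33 passed limma's adjusted test (adjusted p = 1.3e-07). DESeq2 did not call this difference (adjusted p = 0.17). The values were higher on average in the GC-SAL and FLT-BuOE mice, at 143, 147 and 322 and at 254, 216 and 256, than in the FLT-SAL and GC-BuOE mice, at 56.5, 84.2 and 98.5 and at 103, 85.4 and 173, and GC-BuOE mouse 3 lay above GC-SAL mice 1 and 2. Each of these groups was on its own slide. The flight difference of Cpne7 in the CA of saline mice also differed from that in CT by -1.63 ± 0.33 (limma adjusted p = 0.027).

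AI593442 stood out because its flight difference with saline differed between the CA and CT by 1.69 ± 0.30 on the log2 scale (limma adjusted p = 0.0018), from 1.06 in the CA to -0.63 ± 0.21 in CT. In CT the values were 24.7, 34.5 and 38.0 in the flown mice and 50.9, 43.8 and 55.8 in the controls, without overlap.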

How the results depend on the processing

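The 22 called genes became 22 with a pseudocount of 0.5, 24 with 5, 21 with the negative probe subtracted, 17 under TMM scaling and 33 in DESeq2. They became 36 (34 higher) when only genes at or above 1.5 times the negative probe were tested, 46 (44 higher) when only the 6 saline AOIs were fitted, 48 (39 higher, 9 lower) in edgeR with or without filterByExpr, which removed no gene, and 0 in limma without the trend, where the smallest adjusted p was 0.053 and 22 named genes lost their call. The share of calls that were higher was 20 of 22 in limma and 39 of 48 in edgeR. Leaving out 1 mouse of any group gave 1 to 42 calls. With the replicate number as a block there were 52 calls (50 higher), with all 22 among them, but same-numbered mice are different animals whose deviations correlated by 0.0032 to 0.012, so the numbers do not pair them. The difference between saline and BuOE was called for 1 gene, for 4 in edgeR, 0 in DESeq2 and 1 to 4 with 1 mouse left out, and the block left it at 1. The CA against DG difference was called for 0 genes in every setting except that leaving out 1 mouse gave 0 to 2. TMM kept 17 of the 22 genes, DESeq2 19 and background subtraction 20. Of 138 named genes, 15 turned sign in at least 1 of 22 settings, none of them called and none with a change above 0.35 in size. With 1 mouse left out their changes ranged, on the log2 scale, as follows for Bok (-0.16 to 0.13), C1ql3 (-0.036 to 0.35), Cpne6 (-0.33 to 0.0099), Enpp2 (-0.26 to 0.085), Grin2a (-0.12 to 0.10), Hnrnpdl (-0.20 to 0.044), Hspa8 (-0.29 to 0.069), Kcnj6 (-0.17 to 0.076), Mt2 (-0.067 to 0.44), Nr3c1 (-0.034 to 0.19), Nr3c2 (-0.14 to 0.23), Prss35 (-0.37 to 0.033), Rgs2 (-0.72 to 0.085), Rgs5 (-0.13 to 0.26) and Srsf5 (-0.15 to 0.027). In edgeR and DESeq2, Bok was at -0.021 and -0.0035, and Nr3c2 at -0.012 and -0.013. The causes were not tested. The GC-SAL AOIs had fewer reads than the FLT-SAL AOIs, and no setting evened the depths.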

Other observations

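In 4 genes called by edgeR and not by limma, 1 mouse stood apart. Mmp19, a matrix metalloproteinase, was at 45.9, 196 and 40.0 in the FLT-SAL mice and 43.1, 26.7 and 57.8 in the GC-SAL mice, and its log2 fold change of 0.80 was 0.08 without FLT-SAL mouse 2. Slc6a2, the noradrenaline transporter, was at 36.5, 20.5 and 23.9 in the FLT-SAL mice and 24.6, 204 and 28.2 in the GC-SAL mice, and its change of -0.98 was -0.01 without GC-SAL mouse 2. Smug1, a uracil-DNA glycosylase, and Utp6, of ribosome assembly, were high in GC-SAL mouse 3 alone, at 14.1, 26.7 and 17.7 against 16.9, 36.2 and 80.0 and at 21.2, 25.7 and 24.6 against 32.3, 30.5 and 74.1 (FLT-SAL against GC-SAL), and their changes of -0.93 and -0.79 were -0.38 and -0.39 without it.

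Of the CA2 and CA3 markers, Pcp4, a calmodulin regulator, was at 44.7, 33.9 and 36.2 against 35.4, 22.9 and 32.6 (0.34 ± 0.27), and Bok was at 61.2, 42.1 and 40.8 against 53.9, 41.9 and 44.5. The phosphatase 1 scaffold Ppp1r9b, or spinophilin, was at 538, 589 and 661 against 499, 640.4 and 529, and its change of 0.10 ± 0.14 may be set beside that of the inhibitor Ppp1r1a (0.79 ± 0.18), although the difference between these genes was not tested. Chgb, a granin of secretory granules, was at 139, 143 and 134 against 120.1, 137 and 81.5 (0.32 ± 0.17).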
